A study of Mus musculus with 28 samples.

Results

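Collagens are the main structural proteins of the extracellular matrix, and the genes described here are those that encode their chains. The rule took every gene of both deposited expression tables whose symbol is Col, a type number, the letter a and a chain number, with no further suffix. It found 43 of the 37583 genes. They fall into 9 classes: 11 fibrillar chains, 6 of the basement membrane network, 6 of beaded filaments, 3 of short-chain networks, 1 of anchoring fibrils, 9 fibril-associated chains, 4 transmembrane chains, 2 multiplexins and 1 other. The label holds by construction, since symbols were the criterion and the rule reads no level; the gene family itself was proposed with earlier results of these data known.

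The series measured RNA in 14 libraries of mouse embryonic stem cells (mESCs) and 14 of embryoid bodies (EBs), which are clumps of cells that have begun to differentiate and were collected 5 days after the cytokine LIF was withdrawn. All mESCs were grown with LIF and 2 kinase inhibitors on a layer of growth-arrested mouse embryonic fibroblasts, and these feeders were reduced by a short plating step before lysis. The CJ7 line was studied as wild type, as Eed null, and as 2 EloA edited forms in which 1 lysine of Elongin A was replaced, K754M and K754R, with 2 mESC and 2 EB libraries each. The CCE line (CCE28 in the growth protocol) was studied in mESCs as EloA wild type and EloA null, with 3 libraries each, and in EBs as 3 groups with 2 libraries each. Eed is a core subunit of Polycomb repressive complex 2, which methylates histone H3 to keep genes silent, and Elongin A, encoded by Tceb3 in these tables, is a subunit of a transcription elongation factor. The labels do not say whether an edited line is 1 clone or several, nor whether libraries of a group are separate cultures, so each p-value measures the spread between libraries, which may be technical.

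For 4 of the CCE EB libraries the title and the column name give different genotypes. Pair A is titled EloA null while its data columns are named heterozygous, and pair B is titled heterozygous while its columns are named null. No genotype was given to either pair here. Eed checked the labels of the Eed null libraries: its level, in reads per kilobase of exon, scaled by library size (RPKM), was 22.3 and 22.1 in Eed null mESCs against 105 and 119 in the wild type, and 15.8 and 16.3 against 49.6 and 55.3 in EBs. Tceb3 was at 8.02, 6.33 and 6.17 RPKM in EloA null CCE mESCs against 11.7, 11.2 and 10.7 in EloA wild type. Estimated depth, in units of 1000000 reads, ran from 11.1 to 18.2 in CJ7 mESCs, 24.3 to 46.3 in CCE mESCs, 28.7 to 39.8 in CJ7 EBs and 23.6 to 30.8 in CCE EBs.

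A collagen molecule is a triple helix of alpha chains, which may be copies of 1 chain or products of different genes, so partner chains of a type are described together. Fibrillar types I, III and V form the banded fibrils of connective tissue and are made in bulk by fibroblasts. Type IV forms the sheet of every basement membrane, and in the early embryo much of it comes from the extraembryonic endoderm. Fibril-associated collagens such as type IX sit on fibril surfaces, and multiplexins such as type XVIII, the source of endostatin, are basement membrane proteoglycans.

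Some partner chains lie beside each other on opposite strands, here as RefSeq gives them on the GRCm38.p6 build. For Col4a1 and Col4a2, the main chains of type IV, the first bases of both transcripts lie on each other at chr8:11312805-11312826. Col4a2 starts at 11312805 on the plus strand and Col4a1 at 11312826 on the minus strand, 21 bases apart, and the annotation gives them 22 exon bases in common, so the bases before each start lie within the other gene. Col4a5 and Col4a6 are head to head without such overlap, with starts 1343 bases apart on chromosome X, and they are shown because their RNA rose together in 1 comparison below. The 250 bases before each start, read on its own strand, are at chrX:141475169-141475418 (plus) and chrX:141474077-141474326 (minus), with capitals marking the motifs searched.
Col4a5: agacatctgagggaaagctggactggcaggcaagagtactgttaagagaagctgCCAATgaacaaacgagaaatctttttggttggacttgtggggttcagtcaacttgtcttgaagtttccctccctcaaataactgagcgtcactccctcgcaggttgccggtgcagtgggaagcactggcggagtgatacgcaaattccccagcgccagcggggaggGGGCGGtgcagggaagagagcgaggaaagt
Col4a6: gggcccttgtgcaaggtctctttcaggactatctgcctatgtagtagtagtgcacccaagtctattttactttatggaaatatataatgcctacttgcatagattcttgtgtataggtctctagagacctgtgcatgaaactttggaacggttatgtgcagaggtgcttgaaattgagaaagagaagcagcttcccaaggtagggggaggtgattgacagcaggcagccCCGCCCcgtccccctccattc
The motifs were the GC box (GGGCGG or, from the other strand, CCGCCC), the CCAAT box (CCAAT or ATTGG) and the TATA box (TATAAA or TTTATA). Among 32851 RefSeq windows of the same length, 32.7% held a GC box, 33.8% a CCAAT box and 12.4% a TATA box. In the windows shown no motif overlapped another, and a match describes the letters and is not a measured site.

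The remaining windows belong to 3 members whose RNA is described at length below. Col3a1 (chr1:45311288-45311537, plus) held a TATA box and no CG dinucleotide. Col9a2 (chr4:121039316-121039565, plus) held 2 GC boxes. Col18a1 has 2 annotated starts on the minus strand: the window at chr10:77166531-77166780 held 3 GC boxes and a CCAAT box, and the one at chr10:77113706-77113955 held none of the motifs.
Col3a1: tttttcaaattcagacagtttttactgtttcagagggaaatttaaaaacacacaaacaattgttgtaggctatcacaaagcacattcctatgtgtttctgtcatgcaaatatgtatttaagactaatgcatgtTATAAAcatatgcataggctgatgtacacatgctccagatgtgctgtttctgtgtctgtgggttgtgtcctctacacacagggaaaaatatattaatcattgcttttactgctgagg
Col9a2: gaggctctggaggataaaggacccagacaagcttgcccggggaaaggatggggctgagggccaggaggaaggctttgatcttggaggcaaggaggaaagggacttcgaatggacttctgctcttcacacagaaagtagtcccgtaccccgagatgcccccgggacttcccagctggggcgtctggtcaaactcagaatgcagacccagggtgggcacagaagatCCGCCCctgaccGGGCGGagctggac
Col18a1, start with GC boxes: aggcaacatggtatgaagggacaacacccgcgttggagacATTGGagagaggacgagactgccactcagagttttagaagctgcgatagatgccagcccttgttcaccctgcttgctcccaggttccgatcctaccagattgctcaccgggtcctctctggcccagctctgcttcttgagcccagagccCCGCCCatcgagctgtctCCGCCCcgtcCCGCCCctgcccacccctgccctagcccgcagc
Col18a1, other start: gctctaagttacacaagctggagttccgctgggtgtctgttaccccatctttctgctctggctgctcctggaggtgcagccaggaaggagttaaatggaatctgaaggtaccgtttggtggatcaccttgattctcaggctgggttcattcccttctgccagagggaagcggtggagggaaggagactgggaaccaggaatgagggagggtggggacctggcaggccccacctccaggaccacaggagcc
CG dinucleotides are the sites of DNA methylation, and CG-rich promoters are those at which Polycomb complexes are usually found. Over 35 members with a window, Col4a1 held 31 CG in the 250 bases, Col5a1 28 and Col4a2 26, while Col3a1, Col9a1 and Col28a1 held 0. The median over all windows was 6, with quartiles of 2 and 16.

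The collagen RNA of mESC libraries was mostly fibrillar, and that of EBs was mostly type IV. Fibrillar chains made up 48.4 to 72.1% of the summed RPKM of the members in the 14 mESC libraries (median 61.8%) and 3.95 to 14.7% in the 14 EB libraries (median 10.7%). The basement membrane network went the other way, with 6.70 to 16.5% in mESCs (median 10.9%) and 65.9 to 80.8% in EBs (median 70.8%). Neither range overlapped between stages. The stages come from separate tables whose common scale is not stated, so these levels stand side by side and were not tested. The summed level of all members was 137 to 1212 RPKM in mESCs and 127 to 420 RPKM in EBs.

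**Figure D1:**
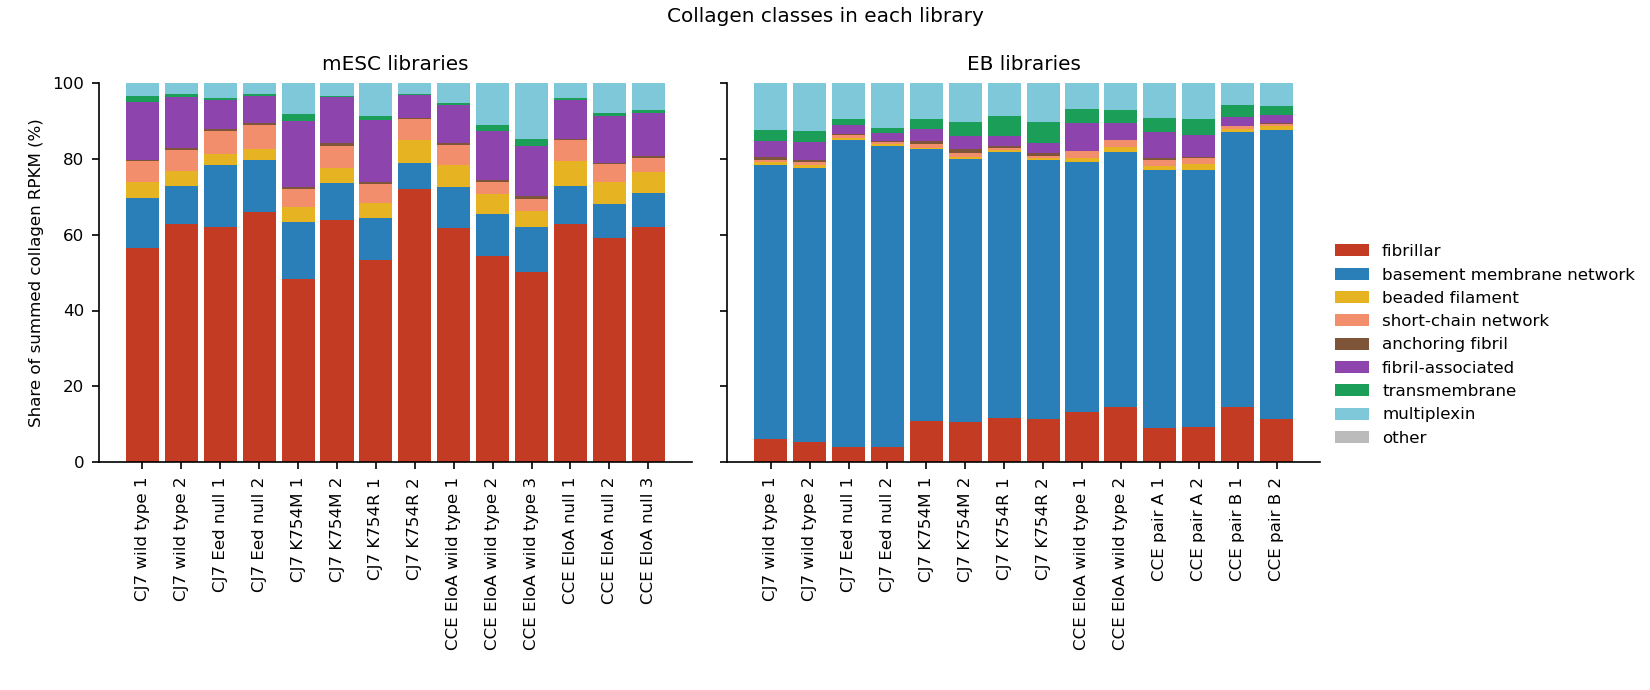
Share of the summed RPKM of the 43 collagen members held by each class (percent, stacked from 0), 1 bar per library, mESC libraries and EB libraries in separate panels. Fibrillar chains hold 48.4 to 72.1% in mESCs and 3.95 to 14.7% in EBs, and the basement membrane network holds 6.70 to 16.5% and 65.9 to 80.8%.

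By gene, 11 members were higher in every mESC library than in every EB library, 4 were higher in every EB library, and the ranges of the other 28 overlapped. Of the 35 members with a mean of at least 0.25 RPKM in either stage the 11 are 31.4% and the 4 are 11.4%, against 10.6% and 5.92% of 20091 genes with such a mean. The 11 were Col1a1, Col1a2, Col3a1 and Col5a2 of the fibrils, Col6a1, Col6a2 and Col6a3 of beaded filaments, Col8a1 and Col10a1 of short-chain networks, and the fibril-associated Col12a1 and Col16a1. The 4 were Col4a1 and Col4a6 of the basement membrane and the fibril-associated Col9a1 and Col14a1. In mESCs the highest mean levels were those of Col5a2, Col1a2, Col1a1, Col3a1 and Col5a1, in that order. In EBs they were those of Col4a1, Col4a2, Col18a1, Col5a1 and Col4a5. Neighbours in the mESC order did not separate: Col5a2 ranged from 12.2 to 186 RPKM and Col1a2 from 16.1 to 218 RPKM. In EBs Col4a1 (56.2 to 215 RPKM) and Col4a2 (21.2 to 114 RPKM) overlapped in range, as did Col4a2 and Col18a1 (10.5 to 50.3 RPKM).

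Fibrillar RNA in the mESC libraries varied together with RNA of fibroblast markers. A list of 32 fibroblast genes without collagens, among them Postn, Lox, Tagln and Acta2, summed to 183 to 1338 RPKM (median 541), and at most 1 of the 32 was at 0 in any mESC library. In EBs the same list summed to 51.5 to 268 RPKM, with Lox, Dcn, Fap and Islr at 0 in at least 1 library and at most 5 of the 32 at 0 in any. The list did not go 1 way: the median of Mmp2 was 29.3 RPKM in EBs against 8.66 in mESCs, and that of Twist1 16.5 against 4.14. Twist2, Gas1, Mfap4, Pdgfrb and Cxcl12 also had higher medians in EBs, and the other listed genes had lower ones. Col1a2, a chain of type I, was at 32.9 and 45.1 RPKM in CJ7 wild type mESCs, 67.3 and 102 in Eed null, 30.9 and 78.2 in K754M, and 40.9 and 218 in K754R. In CCE it was at 49.3, 21.4 and 16.1 RPKM in EloA wild type and 68.8, 33.7 and 42.5 in EloA null. The second K754R library was the highest of the 14 for Col1a2 and for the fibroblast list, and the third EloA wild type library was the lowest for both.

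**Figure D2:**
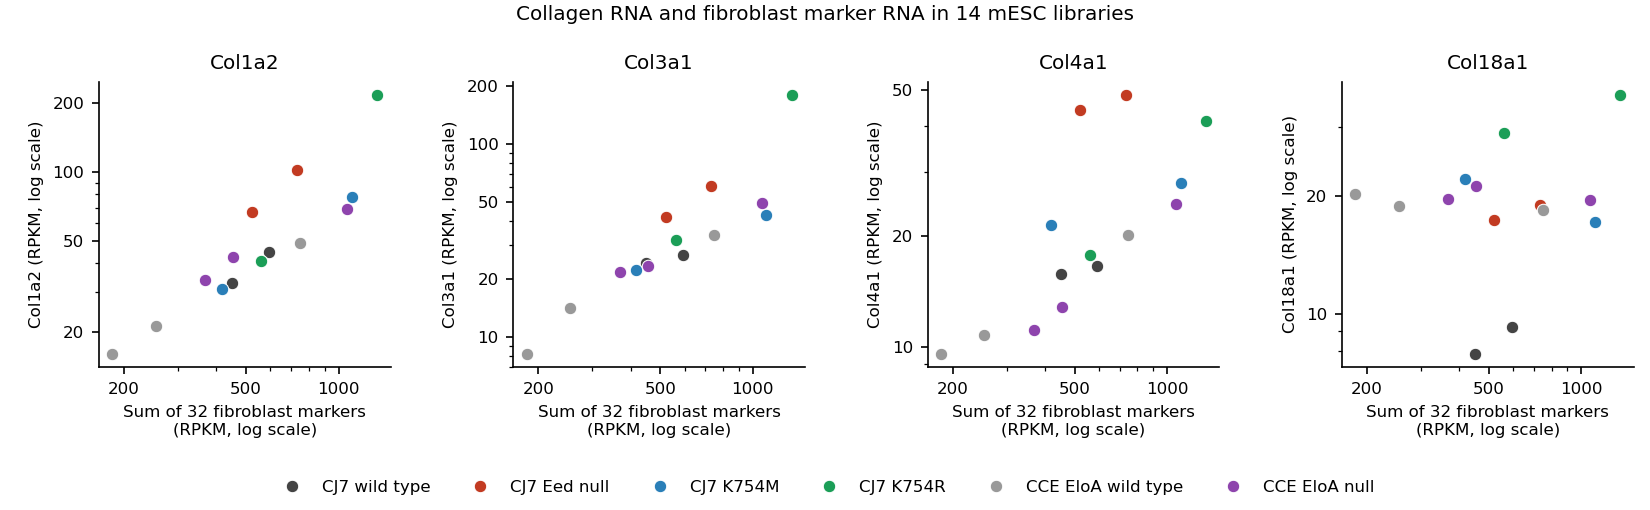
Level of Col1a2, Col3a1, Col4a1 and Col18a1 (RPKM, log scale) against the summed level of 32 fibroblast markers (RPKM, log scale) in 14 mESC libraries, colored by group. The second K754R library lies at 1338 RPKM of fibroblast markers with Col1a2 at 218 RPKM, while Col18a1 separates the CJ7 wild type (7.87 and 9.25 RPKM) from the rest.

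Within groups the order of libraries was compared with the order of their fibroblast sums. Of the 30 members with a mean of at least 0.25 RPKM over the mESC libraries, 15 were higher in the library with most fibroblast RNA than in the one with least in each of the 6 mESC groups, against 9.37% of 18714 genes with such a mean. They were 6 fibrillar chains (Col1a1, Col1a2, Col3a1, Col5a1, Col5a2 and Col11a1), Col27a1 of the same class, Col4a1, Col6a1, Col6a3, Col7a1, Col8a1, Col10a1, Col12a1 and Col16a1. Col18a1, Col8a2, Col22a1 and Col23a1 did so in 3 groups. Col9a2, Col9a3 and Col13a1 did so in 1 group. Col9a2, a type IX chain, went from 10.1 to 3.41 RPKM between the first and second K754R libraries, while fibroblast RNA went from 561 to 1338. The part of feeder RNA in these levels was not tested. In bulk RNA, fewer cells of a type and less RNA per cell cannot be told apart.

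Type VI, whose 3 main chains build the beaded filaments around fibroblasts, showed the same spread. Col6a1 was at 7.52 and 8.39 RPKM in CJ7 wild type mESCs, 9.43 and 14.2 in Eed null, 7.65 and 14.8 in K754M and 9.80 and 56.7 in K754R. The value of 56.7 stood alone, in the library with the most fibroblast RNA. Col6a2 ran from 0.642 to 7.80 RPKM and Col6a3 from 0.733 to 8.16 over the 14 libraries, with the same library highest in both. In EBs Col6a1 ran from 0.793 to 2.15 RPKM, and Col6a2 and Col6a3 reached at most 0.338 and 0.275 RPKM. Col3a1, type III, was at 24.1 and 26.6 RPKM in CJ7 wild type mESCs, 41.8 and 61.1 in Eed null, 22.3 and 43.2 in K754M and 31.7 and 181 in K754R. Without the second K754R library its highest mESC value was 61.1 RPKM.

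The question put to the CJ7 mESCs is what loss of Eed or an edit of Elongin A does to the stem cell transcriptome. Collagen members changed in few of these comparisons, and the member that did was Col18a1. In Eed null mESCs 1 of 30 tested members was called higher and 0 lower (adjusted p below 0.05 by limma), while 8.59% of all genes were called (5.32% higher and 3.27% lower). The members' median log2 difference was 0.62 against 0.05 for all genes, and 27 of the 30 were above 0, against 54.6% of all genes. The fibroblast list had a median of 0.42 over 32 genes, with 0 called higher and 1, Postn, called lower. Its sums overlapped, at 521 and 732 RPKM in Eed null and 450 and 593 in wild type. In K754R mESCs 1 of 30 was called, against 0.162% of all genes (0.0761% higher and 0.0857% lower), with a members' median of 0.86 and a fibroblast median of 0.79. In K754M mESCs 0 of 30 members were called, against 0% of all genes; 1 member and 2103 genes had an unadjusted p below 0.05. These 3 comparisons share the 2 wild type libraries, so their values are set side by side only.

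Col18a1 was at 7.87 and 9.25 RPKM in CJ7 wild type mESCs, 17.3 and 19.0 in Eed null, 22.05 and 17.1 in K754M, and 29.0 and 36.3 in K754R. The wild type libraries were the lowest and the K754R libraries the highest, without overlap with the other groups, while Eed null and K754M overlapped. The log2 difference from wild type was 1.04 ± 0.19 (SE) in Eed null (adjusted p 0.0227), 1.14 ± 0.19 in K754M (adjusted p 0.112) and 1.87 ± 0.19 in K754R (adjusted p 0.0381). Thus Col18a1 was called in Eed null and K754R mESCs and not in K754M. The K754M difference was no smaller than that of Eed null at the same SE, and p-values were adjusted within each comparison. The calls therefore do not set K754M apart from Eed null. Without 1 library at a time the difference stayed between 0.93 and 1.15 in Eed null (adjusted p 0.0772 to 0.198) and between 1.71 and 2.03 in K754R (adjusted p 0.0554 to 0.307), so both calls end when any 1 of the 4 libraries of its comparison is left out. In these fits 0.877 to 2.01% of all genes were called in Eed null and 0% in K754R. K754R minus K754M was 0.72 ± 0.19 (adjusted p 0.277), with 0 of 30 members called in that comparison against 0.00952% of all genes. In CCE mESCs Col18a1 was at 18.4, 18.9 and 20.2 RPKM in EloA wild type and 19.6, 19.6 and 21.1 in EloA null. All 6 CCE values lay above the CJ7 wild type, and the difference between the CCE groups was 0.07 ± 0.06 (adjusted p 0.598). The low value of the wild type CJ7 libraries did not carry into EBs, where they held 22.2 and 19.0 RPKM.

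**Figure D3:**
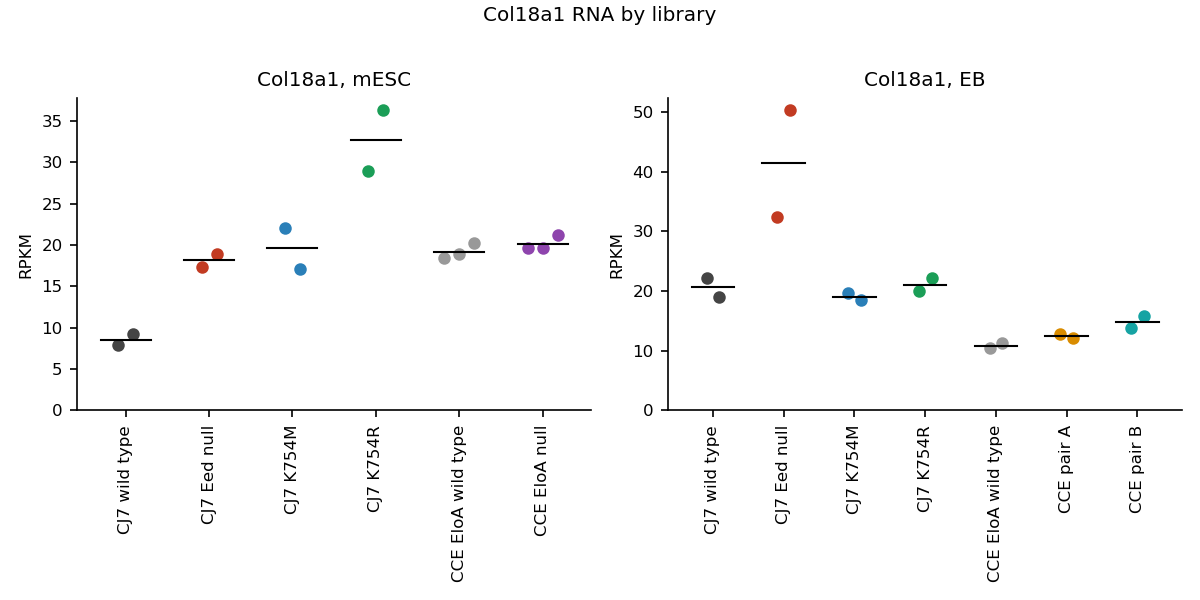
Level of Col18a1 (RPKM) in every library, by group, with mESC and EB groups in separate panels; points are libraries and horizontal lines are group means. CJ7 wild type mESCs lie at 7.87 and 9.25 RPKM, below all other mESC libraries, and Eed null EBs lie at 32.4 and 50.3 RPKM, above all other EB libraries.

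Type IV chains were the next lowest in p among Eed null mESCs without passing the threshold. Col4a1 was at 44.1 and 48.6 RPKM in Eed null against 15.8 and 16.6 in wild type (log2 difference 1.49 ± 0.36, adjusted p 0.0536), and Col4a2 at 22.6 and 26.9 RPKM against 10.7 and 8.73 (1.31 ± 0.37, adjusted p 0.0780). Neither gene's groups overlapped. K754M held 21.5 and 27.9 RPKM of Col4a1 and K754R 17.8 and 41.3, both above wild type as well. Among cartilage collagens, Col2a1 was at 3.12 and 5.58 RPKM in Eed null against 0.441 and 0.336 in wild type (2.40 ± 0.93, adjusted p 0.162), and at 0.607 and 9.62 in K754R. Of the genes that act with collagens, the Eed null mESCs had 0 of 18 called among those that modify and fold chains, 0 of 7 receptors and 0 of 8 breakdown genes. There 8.59% of all genes were called. Loxl4, a lysyl oxidase that crosslinks fibrils, rose by 2.50 and Pcolce, an enhancer of procollagen cleavage, fell by 1.40 among 12 processing genes. Among the basement membrane partners named here, the laminin chains Lama5 and Lamb1 rose and Lamc1 fell.

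In CCE mESCs the EloA null libraries held more collagen RNA than the wild type library of the same number, and more fibroblast RNA. Col1a1 was at 54.8, 33.8 and 53.3 RPKM in EloA null and 37.1, 20.4 and 20.2 in EloA wild type, in the order of their numbers. The groups overlapped, and EloA null was higher at each number. The fibroblast sums were 1068, 368 and 454 RPKM against 747, 254 and 183, also higher at each number. Without a term for the number, 0 of 27 tested members were called against 3.35% of all genes (2.12% higher and 1.23% lower); 1 member and 3282 genes had an unadjusted p below 0.05, and Col1a1 had the lowest adjusted p among members (0.88 ± 0.28, adjusted p 0.175). With the replicate number as a block, a pairing taken from these data, 8 members were called higher and 0 lower, against 12.4% of all genes called (6.67% higher). These were Col1a1 (0.88 ± 0.16, adjusted p 0.0338), Col1a2, Col5a2, Col6a1, Col4a2, Col4a5, Col8a1 and Col12a1, with differences of 0.45 to 0.95. The members' median was 0.54 and the fibroblast list's median 0.54, against -0.02 for all genes. Of 31 fibroblast genes tested, 0 were called without the block, and with it 10 were called higher, among them Tagln, Thbs2 and Prrx1, and 0 lower. Col18a1, Col9a2 and Col9a3 were not among the called members. The part of feeder RNA in these calls was not tested.

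The EB comparisons ask how the same alleles alter early differentiation. Eed null EBs differed from wild type in 15 of 34 tested members, with 12 higher and 3 lower, while 30.4% of all genes were called (19.2% higher and 11.2% lower). The 15 are 44.1% of the tested members. They include Col5a3, which with Col6a2 reached the filter in Eed null libraries alone, and without these genes the count was 14 of 32 (43.8%), with 11 higher and 3 of 10 fibrillar chains. The 14 still hold Col6a3, which met the filter through 1 Eed null and 1 K754R library. Its call thus leans on the filter too. Those that rose were spread over classes: 2 of 4 tested type IV chains, 4 of 11 fibrillar, 2 of 8 fibril-associated, 1 of 2 short-chain, 1 of 3 beaded filament, 1 of 4 transmembrane and the multiplexin Col18a1. The 3 that fell were Col9a1, Col9a3 and the transmembrane Col23a1. The members' median log2 difference was 0.33 against 0.05 for all genes, and 24 of 34 were above 0. Without Eed null library 2 or wild type library 2 the count was 9, without Eed null library 1 it was 11 and without wild type library 1 it was 12. In these fits 20.6 to 25.2% of all genes were called. Whichever library was left out, 7 members were called: Col4a1, Col4a2, Col8a2, Col9a2, Col9a3, Col11a1 and Col27a1.

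Type IV showed the lowest adjusted p. Col4a2 was at 94.9 and 114 RPKM in Eed null EBs against 29.4 and 26.7 in wild type, 37.3 and 31.4 in K754M and 41.3 and 39.2 in K754R. Eed null stood above all other EB libraries, including the 6 of CCE (21.2 to 57.9 RPKM), and Col4a2 rose by 1.87 ± 0.14 on the log2 scale over wild type (adjusted p 0.000123). Col4a1 was at 172 and 215 RPKM against 94.5 and 77.3 in wild type, 103 and 85.2 in K754M and 103 and 93.9 in K754R. It rose by 1.17 ± 0.17 (adjusted p 0.00220). The ratio of Col4a1 to Col4a2, whose first exons overlap, was 1.81 and 1.89 in Eed null and 3.22 and 2.89 in wild type, and it ran from 1.41 to 1.95 in mESCs. RPKM divides by exon length, so such a ratio can be read within a stage, although it does not count chains of protein.

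Col4a5 and Col4a6, the head-to-head pair on chromosome X, did not rise with them. Col4a5 was at 3.81 and 3.10 RPKM in Eed null and 4.51 and 3.53 in wild type (log2 difference -0.19 ± 0.19, adjusted p 0.487), with the groups overlapping. Col4a6 was at 1.07 and 1.19 RPKM against 1.66 and 1.37 (-0.30 ± 0.18, adjusted p 0.251), below every wild type value. Col4a3 and Col4a4, the chains of the kidney filter, were below the filter in every EB library. Col18a1, a partner of type IV in basement membranes, was at 32.4 and 50.3 RPKM against 22.2 and 19.0 in wild type, and rose by 0.96 ± 0.20 (adjusted p 0.0109). Without wild type library 2 its difference was 0.85 and its adjusted p 0.0647, which ends the call.

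**Figure D4:**
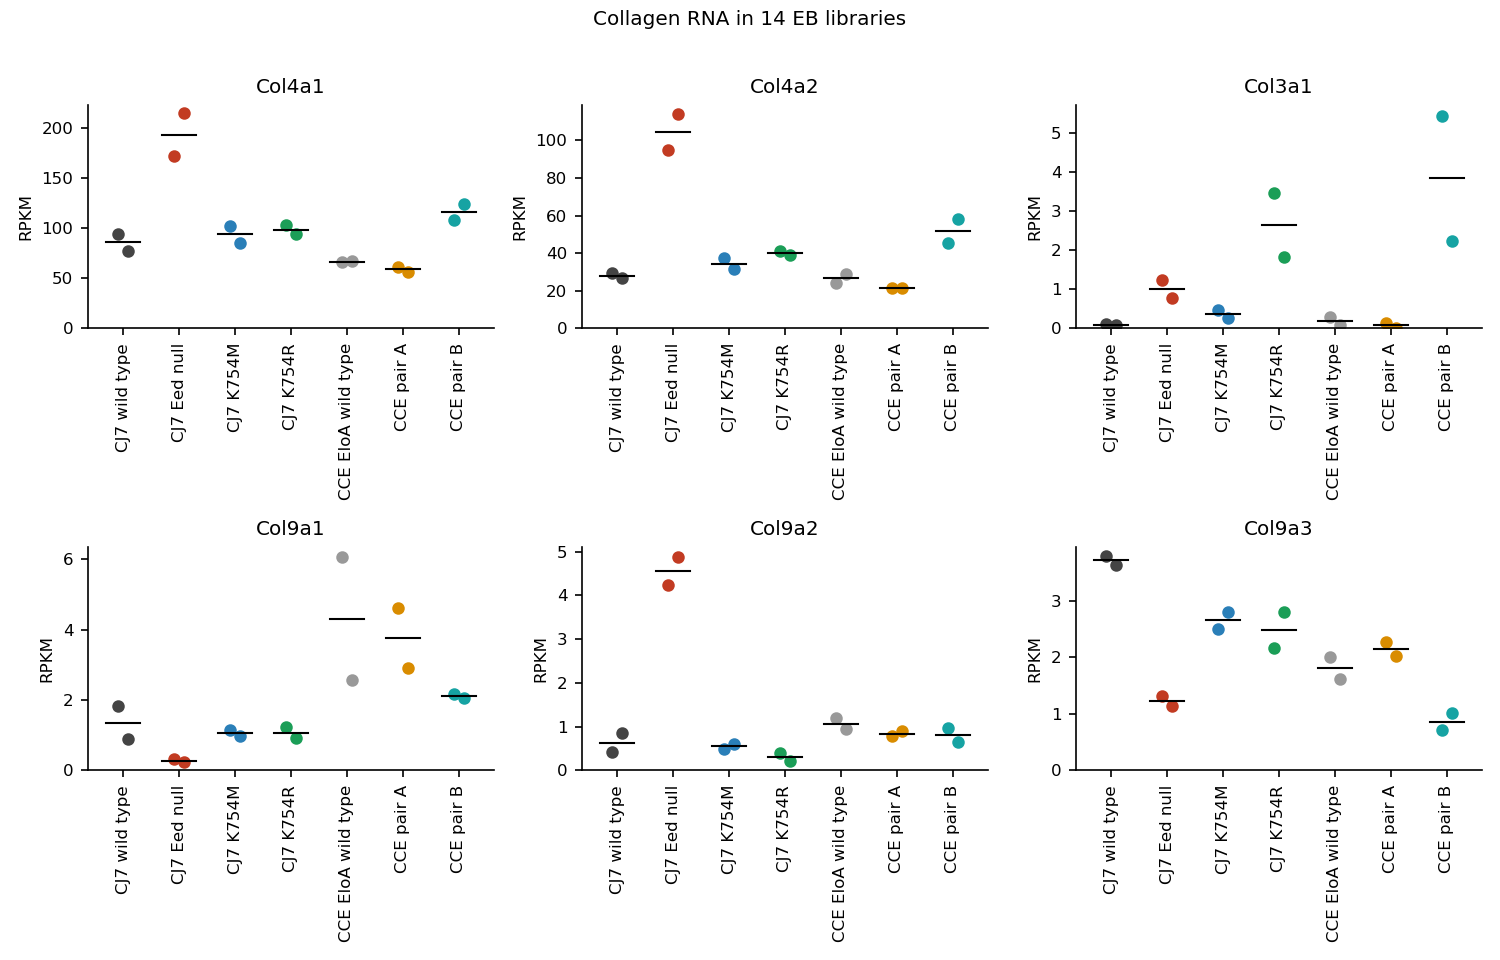
Levels of Col4a1, Col4a2, Col3a1, Col9a1, Col9a2 and Col9a3 (RPKM, axis from 0) in every EB library, by group; each point is 1 library and each horizontal line a group mean. Col4a1 and Col4a2 are highest in Eed null EBs, Col9a2 is highest and Col9a1 lowest there, and Col3a1 spans 0.00960 to 5.44 RPKM over the 14 libraries.

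Other basement membrane genes moved in the same libraries. Of 15 partners tested, 9 rose and 2 fell in Eed null EBs, with a median of 0.72. Of all genes 30.4% were called there (19.2% higher and 11.2% lower), with a median of 0.05. Lama1, the laminin chain of the earliest basement membranes, rose by 3.05, Lamc1 by 1.78 and the linker Nid1 by 1.46 on the log2 scale, while Lama4 and Lamb3 fell. A list of 22 genes of extraembryonic endoderm, the tissue that lays down the yolk sac membrane, had 16 higher and 3 lower (median 1.64). The 3 lower were Foxa2, Gata6 and Sox17, while Hnf4a and Sox7 were among the 16 higher. The 16 also include Thbd, with a median of 0.0456 RPKM over the EB libraries. In the Eed null EBs no endoderm gene lay below the filter, whereas each other CJ7 EB library had 1 to 3 below it. Thbd thus met the filter in the Eed null libraries, and its call may lean on the filter. The list's summed level was 699 and 827 RPKM in Eed null, 246 and 210 in wild type, 236 and 204 in K754M and 295 and 295 in K754R. That list holds Lama1, Lamb1, Lamc1, Nid1 and Sparc, which are also basement membrane genes. Pluripotency genes were higher as well, at 978 and 884 RPKM summed over 8 genes against 237 and 297 in wild type, with 7 of 8 called higher. At most 1 of the endoderm genes, and 0 of the pluripotency genes, was at 0 in any EB library. The part of these cell types in the collagen values was not tested.

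The 3 chains of type IX, a cartilage collagen that coats type II fibrils, parted. Col9a2 was at 4.24 and 4.87 RPKM in Eed null EBs against 0.409 and 0.843 in wild type, 0.482 and 0.612 in K754M and 0.392 and 0.211 in K754R. Eed null stood above all 12 other EB libraries, and Col9a2 rose by 2.19 ± 0.24 (adjusted p 0.000659). Col9a3 was at 1.32 and 1.14 RPKM against 3.80 and 3.64 in wild type, and fell by 1.29 ± 0.18 (adjusted p 0.00173). Col9a1 was at 0.320 and 0.224 RPKM against 1.83 and 0.887, and fell by 1.22 ± 0.27 (adjusted p 0.0127). The Col9a1 groups did not overlap, and its wild type libraries were themselves apart. The ratio of Col9a2 to Col9a3 reached 4.28 in an Eed null EB, whereas in mESCs it was 4.95 to 12.8. It was 0.0754 in the lowest EB library, a K754R one with Col9a2 at 0.211 RPKM, under the filter of 0.25 RPKM. Col9a3 shares 234 of its 3853 exon bases (6.07%) with Tcfl5 on the opposite strand, and since the use of strand is not given in the sources used here its reads are uncertain. The log2 difference of Tcfl5 from wild type was 0.75 in Eed null EBs (adjusted p 0.0193), where that of Col9a3 was -1.29, and 1.35 in Eed null mESCs (adjusted p 0.00828), where that of Col9a3 was 1.11. In K754R EBs Tcfl5 was at -0.96 (adjusted p 0.0228) and Col9a3 at -0.51, and in K754M EBs they were at -0.24 (adjusted p 0.590) and -0.42. The part of shared reads in these values was not tested. The window of Col9a2 shown above holds 9 CG and that of Col9a1 holds 0.

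Among fibrillar chains Col3a1, the partner of type I in soft tissue, was at 1.25 and 0.772 RPKM in Eed null EBs against 0.111 and 0.0743 in wild type, and rose by 1.33 ± 0.30 (adjusted p 0.0136). Col27a1, a chain of developing cartilage, was at 1.45 and 1.90 RPKM against 0.489 and 0.569, and rose by 1.07 ± 0.18 (adjusted p 0.00418). Col11a1, which nucleates cartilage fibrils, was at 1.13 and 1.41 RPKM against 0.447 and 0.446, and rose by 0.90 ± 0.17 (adjusted p 0.00640). In each of these genes the groups were apart. Col5a3 was at 0.478 and 0.578 RPKM in Eed null, from 130 and 137 reads, and at 0 to 0.0416 RPKM in the other EB libraries, from 0 to 9 reads. It passed the filter through the Eed null libraries alone and so had to differ, with a fitted log2 difference of 0.96 on the scale with 0.5 RPKM added. Type I did not pass: Col1a1 was at 0.295 and 0.209 RPKM in Eed null against 0.591 and 0.427 in wild type (-0.42 ± 0.20, adjusted p 0.160), and Col1a2 at 0.698 and 0.752 against 0.465 and 0.482 (0.33 ± 0.16, adjusted p 0.152). The groups were apart in both chains and the signs opposite.

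Of the remaining classes, Col8a2, a short-chain collagen of the corneal endothelium's membrane, was at 1.58 and 2.09 RPKM in Eed null against 0.637 and 0.650 in wild type, and rose by 1.02 ± 0.19 (adjusted p 0.00641). Col12a1 (0.74), the hemidesmosome collagen Col17a1 (0.69) and Col6a3 (0.56) rose from wild type levels under 0.3 RPKM. Col6a3 reached 0.25 RPKM in 1 Eed null and 1 K754R library and in no wild type library, and its partners Col6a1 (0.32, adjusted p 0.262) and Col6a2 (0.30, adjusted p 0.152) did not pass. The transmembrane Col23a1 was at 2.10 and 2.11 RPKM in Eed null against 3.21 and 3.29 in wild type, and fell by 0.52 ± 0.14 (adjusted p 0.0286).

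**Figure D5:**
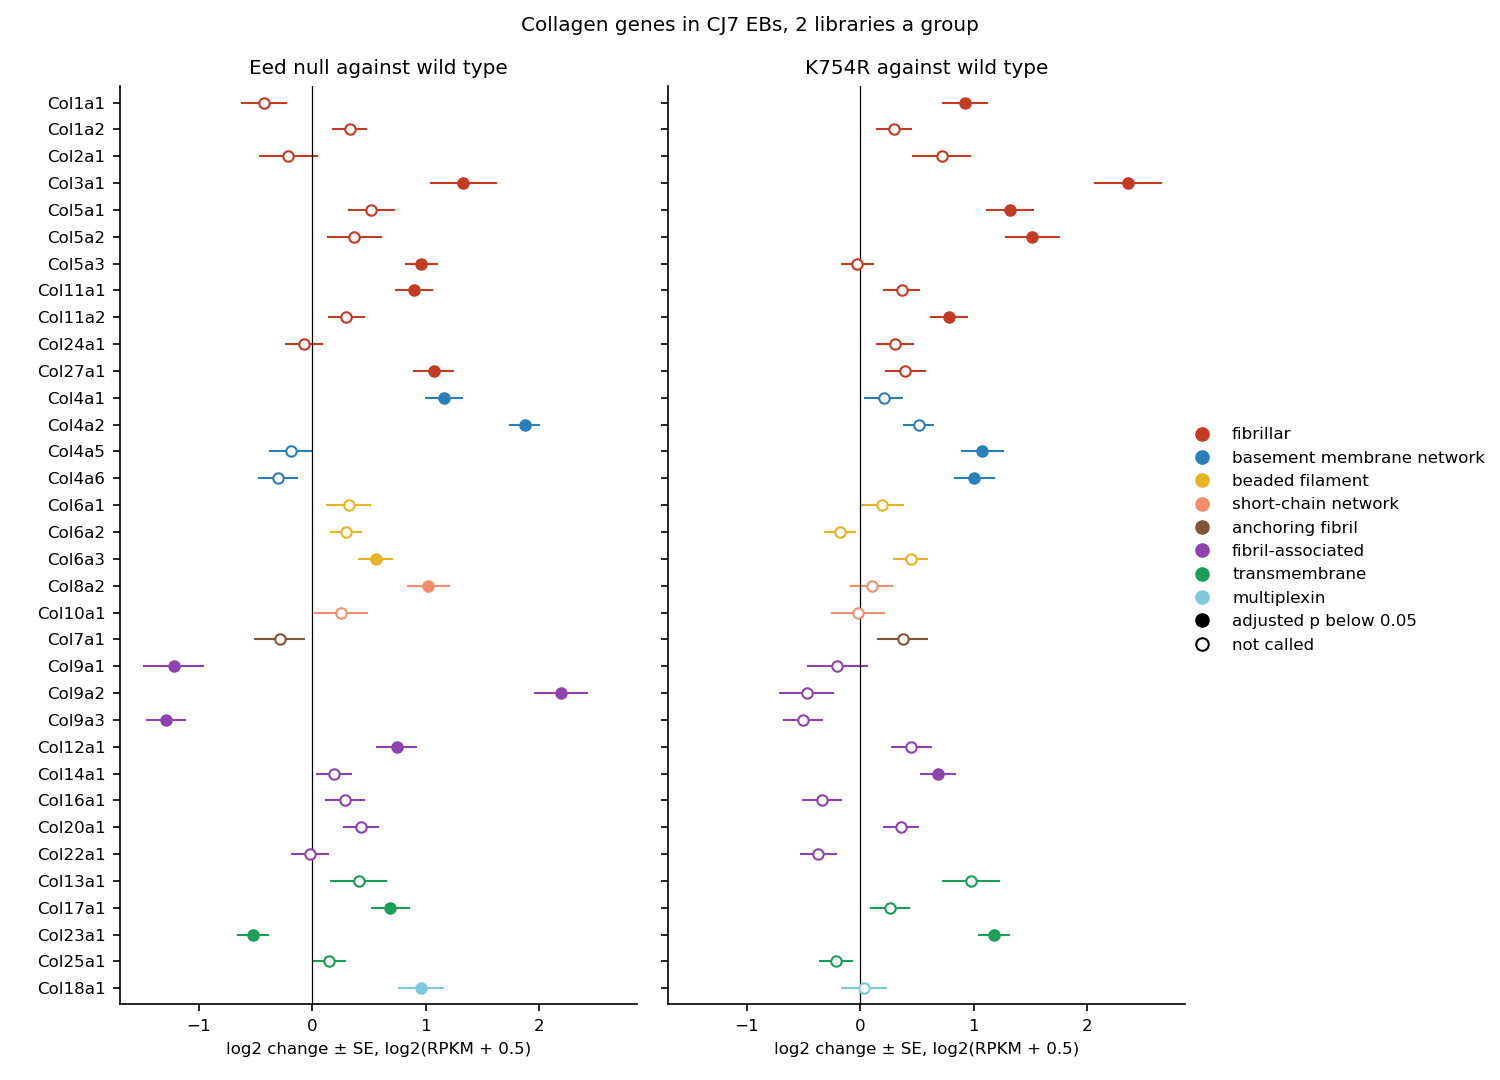
Log2 difference from wild type (log2 of RPKM + 0.5) with its standard error for each tested collagen member in CJ7 EBs, grouped by class, for Eed null and for K754R; filled points passed adjusted p below 0.05. Eed null has 15 filled points of 34, 3 of them below 0, and K754R has 9, all above 0.

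Genes that make, process and bind collagen moved in both directions in Eed null EBs, where 30.4% of all genes were called (19.2% higher and 11.2% lower). Among 17 modifying and folding genes 4 rose and 2 fell (median 0.02, against 0.05 for all genes). Serpinh1, the chaperone of the collagen triple helix, rose by 0.99, and Crtap, a member of the prolyl 3-hydroxylation complex, rose by 1.23, whereas Fkbp14 fell by 0.79 and Leprel1 by 0.74. Of 12 processing and crosslinking genes 5 rose and 2 fell: Bmp1, which cleaves procollagen C-propeptides, rose by 1.47, and peroxidasin Pxdn, which crosslinks type IV, fell by 0.87. Among 6 receptors Itga1 and Ddr2 rose and Itgb1 fell by 1.14, and among 7 breakdown genes Ctsk, Mmp9, Timp1 and Timp3 rose while Mmp2 fell by 1.33. Fibroblast genes had 9 higher and 7 lower of 25, and their sum was 51.5 and 54.4 RPKM in Eed null and 95.2 and 75.1 in wild type. The 9 include Dcn, Mmp3 and Thbs2, with medians of 0.0326, 0.052 and 0.1496 RPKM over the EB libraries. Of the 32 listed fibroblast genes, 7 and 6 were below the filter in Eed null EBs and 12 and 13 in wild type. Calls of such low genes may thus lean on the filter.

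K754R EBs showed higher fibrillar collagens and 0 lower members. Of 34 tested members 9 were called higher (26.5%), against 9.68% of all genes called (4.82% higher and 4.85% lower), and the members' median was 0.36 against 0.01. The 9 were 5 of 11 fibrillar chains, Col4a5 and Col4a6, the fibril-associated Col14a1 and the transmembrane Col23a1. The count was 1 without K754R library 1, K754R library 2 or wild type library 2, and 7 without wild type library 1, and 0 of the 9 members were called in all 4 of these fits. Of all genes 0.926%, 1.13%, 1.39% and 6.52% were called in these fits, in the same order. In K754M EBs 0 of 34 members were called, against 0.565% of all genes (0.181% higher and 0.383% lower); 10 members and 2934 genes had an unadjusted p below 0.05. Both comparisons share the wild type libraries with that of Eed null.

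Col3a1 was at 3.47 and 1.83 RPKM in K754R EBs, 0.476 and 0.258 in K754M and 0.111 and 0.0743 in wild type. The 3 groups did not overlap. It rose by 2.36 ± 0.30 over wild type (adjusted p 0.00711) and by 1.82 ± 0.30 over K754M (adjusted p 0.0234). Without wild type library 2 the difference from wild type was 2.31 and its adjusted p 0.0534. The type V chains, which set the width of type I fibrils, were also higher: Col5a2 was at 4.26 and 3.33 RPKM against 1.33 and 0.714 in wild type (1.52 ± 0.24, adjusted p 0.0138). Col5a1 was at 10.1 and 10.1 RPKM in K754R and 4.34 and 3.22 in wild type (1.32 ± 0.21, adjusted p 0.0132). In K754M it was at 11.2 and 9.43 RPKM (1.34 ± 0.21), and there it did not pass (adjusted p 0.0508). That difference was no smaller than in K754R, and p-values were adjusted within each comparison. Col1a1 was at 1.34 and 1.47 RPKM against 0.591 and 0.427, and rose by 0.92 ± 0.20 (adjusted p 0.0336), while K754M held 2.17 and 1.54 RPKM (1.21 ± 0.20, adjusted p 0.0630). Its partner Col1a2 was at 0.708 and 0.685 RPKM in K754R against 0.465 and 0.482 (0.30 ± 0.16, adjusted p 0.268).

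In the basement membrane network the X-linked pair rose in K754R and the main chains did not pass. Col4a5 was at 9.69 and 8.31 RPKM against 4.51 and 3.53 in wild type (1.08 ± 0.19, adjusted p 0.0180). Col4a6 was at 3.39 and 3.69 RPKM against 1.66 and 1.37 (1.01 ± 0.18, adjusted p 0.0187). The groups were apart in both genes. Col4a2 was at 41.3 and 39.2 RPKM against 29.4 and 26.7 (0.52 ± 0.14, adjusted p 0.0584) and Col4a1 at 103 and 93.9 against 94.5 and 77.3 (0.21 ± 0.17, adjusted p 0.477). Col23a1 was at 7.94 and 8.05 RPKM in K754R, 3.69 and 4.28 in K754M and 3.21 and 3.29 in wild type. It rose by 1.18 ± 0.14 over wild type (adjusted p 0.00605) and by 0.93 ± 0.14 over K754M (adjusted p 0.0200). Col3a1 and Col23a1 were the 2 of 34 members called in K754R minus K754M (5.88%), against 3.62% of all genes (1.72% higher and 1.9% lower). Without any 1 of the 4 libraries of that comparison the count was 0, with 0.11 to 0.335% of all genes called.

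Some markers of fibroblasts, endothelium, extraembryonic endoderm and pluripotent cells were also called in K754R EBs. In that comparison 9.68% of all genes were called (4.82% higher and 4.85% lower). Of 25 fibroblast genes tested 9 rose and 1 fell in K754R EBs, with Postn up by 3.56, Acta2 by 2.91 and Tgfbi by 2.59. The list summed to 168 and 142 RPKM in K754R, 192 and 149 in K754M and 95.2 and 75.1 in wild type. Of 8 endothelial genes 5 rose and 0 fell, and of 8 pluripotency genes 0 rose and 5 fell, with sums of 44.0 and 36.9 RPKM against 237 and 297. Of 22 genes of extraembryonic endoderm 4 rose (Apob, Gata4, Hnf4a and Nid1) and Afp fell, with sums of 295 and 295 RPKM against 246 and 210. In the processing list Adamts2, which removes procollagen N-propeptides, rose by 2.24, Bmp1 by 1.497 and Loxl1 by 1.10, and Pcolce2 fell by 0.76. Among modifying genes 0 of 17 rose and 3 fell: Fkbp10 by 1.30, Leprel4 by 1.06 and P4hb, a subunit of prolyl 4-hydroxylase, by 0.64. The collagen receptor Mrc2 rose (1 of 6 tested), as did Ctsk and Mmp2 of the breakdown list (2 of 7). Lama4 and Nid1 of the basement membrane rose as well (2 of 15), and 0 genes of these lists fell. The part of cell type shares in the collagen values was not tested.

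In CCE EBs pair B held more type IV and type V collagen RNA than pair A. Of 31 tested members 3 were called higher in pair B minus pair A (9.68%) and 0 lower, against 0.44% of all genes (0.344% higher and 0.0959% lower). Col5a1 was at 13.8 and 13.8 RPKM in pair B, 4.59 and 4.54 in pair A and 7.87 and 9.48 in EloA wild type, and rose by 1.502 ± 0.13 in pair B over pair A. Col4a2 was at 45.6 and 57.9 RPKM in pair B, 21.2 and 21.4 in pair A and 24.1 and 29.1 in EloA wild type, and rose by 1.25 ± 0.15. Col4a1 was at 109 and 124 RPKM in pair B, 61.8 and 56.2 in pair A and 66.2 and 67.1 in EloA wild type, and rose by 0.97 ± 0.11. All 3 had an adjusted p of 0.0487. For each gene pair A was lowest and pair B highest, with no overlap among the 3 groups. Leaving out any 1 of the 4 libraries, adding 0.1 in place of 0.5 RPKM or another scaling each brought the count to 0, and the count of all genes to 0 or 1.

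Pair B against EloA wild type gave 0 of 31 called members, against 0.135% of all genes (0.107% higher and 0.0282% lower), with 10 members and 2746 genes at an unadjusted p below 0.05. Pair A against EloA wild type gave 0 of 31, against 0% of all genes, with 3 members and 1166 genes at that level. Col3a1 was at 5.44 and 2.23 RPKM in pair B, 0.142 and 0.00960 in pair A and 0.2995 and 0.0771 in EloA wild type. Pair B was apart from both, with differences of 2.82 ± 0.41 from pair A (adjusted p 0.0612) and 2.57 ± 0.41 from wild type (adjusted p 0.0703). Col1a1 was at 4.61 and 4.97 RPKM in pair B, 2.57 and 2.71 in pair A and 6.16 and 8.24 in wild type, which was highest. Its difference of pair A from wild type was -1.28 ± 0.17 (adjusted p 0.677). Extraembryonic endoderm genes summed to 306 and 344 RPKM in pair B, 174 and 178 in pair A and 158 and 178 in wild type, and the fibroblast list to 268 and 215, 116 and 98.9, and 138 and 135. Of 14 basement membrane partners 4 rose in pair B minus pair A (Lama1, Lama4, Lamc1 and Sparc), as did Bmp1, Mmp9 and Mmp14. There 0.344% of all genes were called higher. The part of these markers in the collagen values was not tested.

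Across the EB groups of both lines the chains of a type did not keep 1 ratio. Col1a1 over Col1a2 ran from 0.278 to 16.4 in EBs and from 0.455 to 1.26 in mESCs. The 0.278 was that of an Eed null library with Col1a1 under the filter of 0.25 RPKM. Col5a1 over Col5a2 ran from 2.37 to 16.2 in EBs and from 0.427 to 0.852 in mESCs, so Col5a1 was the higher chain per length in every EB library and the lower in every mESC library. Col4a5 over Col4a6 ran from 1.82 to 3.55 in EBs. In mESCs it was 20.8 to 89.96, with Col4a6 at most 0.238 RPKM and under the filter throughout. The steadiest of these ratios was Col4a1 over Col4a2, at 1.41 to 1.95 in mESCs and 1.81 to 3.22 in EBs.

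The members near the low end were Col4a3, Col4a4, Col6a4, Col6a5, Col6a6, Col15a1, Col19a1 and Col28a1, which were tested in neither stage. Col4a3 was at most 0.0689 RPKM and Col4a4 at most 0.198 RPKM in mESCs. Col9a1 was at most 0.0821 RPKM in mESCs and 0.224 to 6.06 RPKM in EBs. Members tested in EBs and called in none of the EB comparisons included Col2a1, the cartilage fibril chain (0.912 to 3.84 RPKM), Col7a1, the anchoring fibril chain (0.254 to 1.99), Col13a1 (0.841 to 3.17), Col10a1 (0.234 to 0.760) and Col16a1 (0.242 to 0.684). Col20a1, Col22a1, Col24a1 and Col25a1 lay between 0.117 and 0.652 RPKM in EBs and were not called either. Beside Col9a3, Col4a3 shares 563 exon bases (5.65%) with C430014B12Rik on the opposite strand. Among the called members of Eed null EBs with a window, 11 that rose had a median of 12 CG (0 to 31) and 14 tested members that were not called had a median of 10.5 (1 to 28). The 2 that fell held 0 and 18. The ranges of those that rose and those not called overlapped. Those that rose include Col5a3 (17 CG), tested through Eed null libraries alone, and Col6a3 (3 CG), tested with the help of 1. Col6a2, among those not called, was also tested through Eed null libraries alone, so the filter shaped these sets.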

How the data were processed

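The deposited files are a table of RPKM (reads per kilobase of exon, scaled by library size) for the mESC libraries and another for the EB libraries, as the authors made them, and the tables were not tested against each other. CASAVA 1.7, STAR and the mm9 build are listed, without their roles, per the submitters' processing notes. How reads were counted, with which annotation and whether by strand, is not given in the sources used here. The members and all gene lists were chosen with earlier results of these data known.

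Groups came from the sample labels. Each stage and line was fitted apart with limma 3.58.1 (R 4.3.3, trend) on log2(RPKM + 0.5), over all genes with at least 0.25 RPKM in at least 2 libraries of the fit. P-values were adjusted by Benjamini-Hochberg over all those genes, and adjusted p below 0.05 was called. Log2 differences understate changes of low genes. The script was tested on simulated data. The depth of each library was estimated from the step that 1 read gives in the RPKM values.

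Named were Col1a1, Col1a2, Col3a1, Col4a1 to Col4a6, Col6a1 to Col6a3 and Col18a1, the 5 members with the highest mean per table, and per comparison up to 6 called members with the largest change with their partner chains. Also named were Eed and Tceb3, and up to 3 called genes per other list; further members and list genes (the promoter examples, Col2a1, Col5a3 and the remaining called ones) were chosen after their values were seen. The result of 1 gene of the basement membrane list is not reported here. Alternatives were pseudocounts of 0.1 and 1, no filter, median-ratio scaling, a replicate block, all 14 libraries of a table in 1 fit, and each library left out. In the labels, libraries of the same number share only that number. In CCE mESCs their deviations correlated at 0.51, 0.22 and 0.24, all above 0.1, so the numbers were taken to pair these libraries. This pairing of CCE mESCs comes from the data and was made in no other comparison. Same-numbered correlations passed 0.1 elsewhere too, with 0.43 in pair A minus EloA wild type EBs. The pairing is not clear for EloA null library 2, which correlated at 0.22 with EloA wild type library 3 too. The other differently numbered pairs of CCE mESCs were at -0.40 to 0.09. Promoter windows came from RefSeq (GRCm38.p6; 35 of 43 members matched), and exon overlaps from GENCODE M21 (GRCm38). Figures were drawn with Python 3.11.15, pandas 2.3.3 and matplotlib 3.10.9.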

Additional observations from a re-analysis of the deposited data

Results flagged for a closer look

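In 7 cases every library of a CJ7 group differed from wild type one way in mESCs and the opposite way in EBs, and the difference between stages was not tested. With Eed null minus wild type, the log2 difference of Col12a1 was -0.51 in mESCs and 0.74 in EBs, that of Col17a1 was -0.28 and 0.69, and that of Col9a3 was 1.11 and -1.29. Col9a3 also turned with K754M, at 0.54 in mESCs and -0.42 in EBs, and with K754R, at 0.51 and -0.51. With K754R, Col16a1 was at 0.88 in mESCs and -0.34 in EBs, and Col6a2 at 1.11 and -0.18. Of these 14 values the 3 of Eed null EBs passed the threshold. Such turns were also found in all genes. With Eed null they were 3 of 29 members tested at both stages (10.3%) against 15.5% of 17757 genes, with K754M 1 of 29 (3.45%) against 6.55%, and with K754R 3 of 29 (10.3%) against 7.79%. The exons that Col9a3 shares with Tcfl5 make its reads uncertain.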

How the results depend on the processing

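No alternative turned the sign of a called difference. Of 31 called member differences, all 31 passed with a pseudocount of 1 or with all 14 libraries in 1 fit, and 30 with the replicate block. With a pseudocount of 0.1 or median-ratio scaling 28 passed, and without the filter 25. In the fits that left out 1 library most tests of these differences did not pass. Those fits hold fewer libraries, and not every one of the 31 was still tested in each. The cause of the other losses was not tested. With the replicate block the counts of called members were, with the share of all genes called in that fit, 3 in Eed null mESCs (12.3%), 0 in K754R mESCs (0.00952%), 8 in EloA null mESCs (12.4%), 1 in K754M EBs (1.19%), 5 in pair B minus EloA wild type (3.96%) and 7 in pair B minus pair A (8.24%). In all but the CCE mESCs the libraries were not taken as paired (correlation of same-numbered deviations 0.01 to 0.43), and the other blocked counts stayed within 1.5 times. With all 14 libraries in 1 fit the counts, again with that share, were 1 in K754M mESCs (4.38%), 6 in Eed null mESCs (23.9%), 1 in K754R minus K754M mESCs (3.86%), 3 in K754M EBs (2.17%), 4 in K754R minus K754M EBs (6.78%), 6 in pair B minus EloA wild type (2.95%) and 7 in pair B minus pair A (3.96%). The calls of all genes rose in these fits as well. Without the filter the counts were 0 in K754R mESCs (0.0467% of all genes), 1 in K754R minus K754M EBs (1.5%) and 1 in pair B minus pair A (0.122%). Scaling gave 1 in K754M EBs and 0 in pair B minus pair A, as did a pseudocount of 0.1 there (0). Leaving out 1 library gave 0 to 0 in Eed null and K754R mESCs, 9 to 12 in Eed null EBs, 1 to 7 in K754R EBs, 0 to 0 in K754R minus K754M EBs and 0 to 0 in pair B minus pair A. With 1 library left in a group, it is assumed to vary like the other groups. Depth limits the members under 0.25 RPKM, which rest on few reads.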
